A study of Mus musculus with 6 samples.

Results

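The genes described here are Mbp, Mog, Mag, Mobp, Cnp, Cldn11, Ugt8a and Mal, 8 genes of the myelin sheath that were taken by gene name from the annotation of the array. The rule uses no measured value, but the genes were proposed with earlier results of these data known. They are represented by 12 of the 55681 probes, with 3 probes each for Mbp and Mobp and 1 probe for each of the other 6 genes. Their signal was compared between 2 fractions of magnetically sorted cells from the cerebellum of neonatal wild-type mice, in 3 samples of each fraction and 1 array per sample.

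The A+/G+ fraction carries the surface antigens ACSA-2, an epitope of the sodium pump subunit Atp1b2, and GLAST, the glutamate transporter Slc1a3, whereas the A-/G+ fraction carries GLAST without ACSA-2. A+/G+ cells were retained with magnetic beads against ACSA-2 alone, so that GLAST was not selected for in that step. A-/G+ cells were obtained by first removing cells labeled for L1CAM, ACSA-2, CD45, PSA-NCAM and Ter119 and then selecting for GLAST. Cerebella of either sex were pooled before the sort, each sample held 50000 cells, and the labels give postnatal days 1 to 3, while the study's methods give a somewhat earlier age. The labels name the strain CD1, whereas the study's methods name a C57BL/6 background for its wild-type mice. The labels call the samples of a fraction biological replicates. The comparison asks which transcripts separate fractions enriched for GLAST+ precursors with and without ACSA-2. By the study's flow cytometry neither sorted fraction was pure, and rare ACSA-2+ cells without GLAST were counted with A+/G+.

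In the central nervous system, myelin is the stack of membrane that oligodendrocytes wrap around axons. Oligodendrocyte precursors first become immature oligodendrocytes and then switch on the structural proteins and lipid enzymes of the sheath. Mbp and Mobp are basic proteins of the compact sheath, Mal is a proteolipid of membrane trafficking, and Mag and Mog are immunoglobulin superfamily proteins of the inner and outer surface of the sheath. Cnp is an enzyme of the non-compacted myelin cytoplasm, Cldn11 forms the tight junctions of central myelin, and Ugt8a makes galactosylceramide, a major myelin lipid. In the cerebellum, myelin forms mainly after birth, in the white matter, where oligodendrocyte precursors and astroglial precursors lie side by side.

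The probes are 60 bases long, and their positions below are those of the array annotation on mouse build mm9. The annotation does not state whether a probe lies in coding or untranslated sequence, and no gene model of that build was used here. The RNA was amplified from its poly(A) tail. For this reason the probes were searched for AATAAA, the letters of the common polyadenylation signal, on the strand of the probe. It was present in 3 of the 12 probes and in 10.1% of all probes on the array, and its reverse complement TTTATT in 0 and 3.74%, respectively. The stretches of 30 bases that hold it are shown with these letters in capitals, from chr7:31684202-31684231 on the minus strand for Mag, chr9:120085179-120085208 on the plus strand for the third Mobp probe and chr3:31062922-31062951 on the plus strand for Cldn11. The match is a description of the letters and says nothing on where these transcripts end.
Mag: aaagggacatgaAATAAAtgtcctaatgac
Mobp: taacaagaactcAATAAAtacttgctgact
Cldn11: atatgcAATAAAtaatagtacgaagattat

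All signals below are log2 intensities after quantile normalization, and a positive difference on that scale means a higher mean in A+/G+. Calls required an adjusted p of at most 0.05 in limma (Benjamini-Hochberg, over all probes) together with medians that were no less than 4-fold apart. A probe is described as well above background where the scanner software marked all of its spots in that way. The A-/G+ arrays were dimmer: the 75th percentile of intensity was 332 to 334 on the A+/G+ arrays and 56.6, 113 and 251 on A-/G+ replicates 1, 2 and 3. Accordingly, the lowest normalized signal of a probe well above background was 3.52 to 3.61 on the A+/G+ arrays but 5.72, 4.95 and 4.03 on the A-/G+ arrays. Each fraction occupied a slide of its own, and effects of slide and fraction therefore cannot be told apart. With 3 arrays per fraction, the smallest two-sided p of an exact permutation test is 0.1. In sorted bulk samples, fewer cells of a type and less RNA per cell cannot be told apart.

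The sort was visible in the sorted antigen. Atp1b2 was higher in A+/G+ by 2.16 (medians 3.95-fold apart, adjusted p = 0.00725), which just missed the 4-fold size limit, so that it was not called. Slc1a3 had a difference of -1.19 that missed the limit on the adjusted p (adjusted p = 0.0733). The fractions did not overlap for either gene.

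Over the 12 probes, the myelin genes did not move as a block. Cldn11 was called higher in A+/G+ and the most upstream Mbp probe was called higher in A-/G+, which are 1 of 12 in each direction. The corresponding shares of all probes were 1.53% toward A+/G+ and 0.399% toward A-/G+. The adjusted p alone was passed by 1 myelin probe with a higher signal in A+/G+ and 2 with a higher signal in A-/G+, compared with 4.65% and 4.64% of all probes. The mean was higher in A+/G+ for 6 probes and higher in A-/G+ for 6. The median difference was 0.25, compared with -0.04 over all probes and -0.12 over the 17930 probes that stood well above background on every array. By the brightest probe of each gene, the mean was higher in A+/G+ for 6 genes and higher in A-/G+ for 2. The median difference was then 0.77, with 4 of the 8 genes well above background on all arrays. The fractions did not overlap for 3 probes that were higher in A+/G+, those of Cnp, Cldn11 and Mal, and for 3 that were higher in A-/G+, namely 2 Mbp probes and 1 Mobp probe at background. Such a separation was seen for 12.7% and 24.3% of all probes, respectively. Only 5 probes, of Mbp, Mag, Cnp and Cldn11, stood well above background on every array, and 2 Mobp probes did so on none. No spot of these probes was saturated or marked as an outlier.

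**Figure D1:**
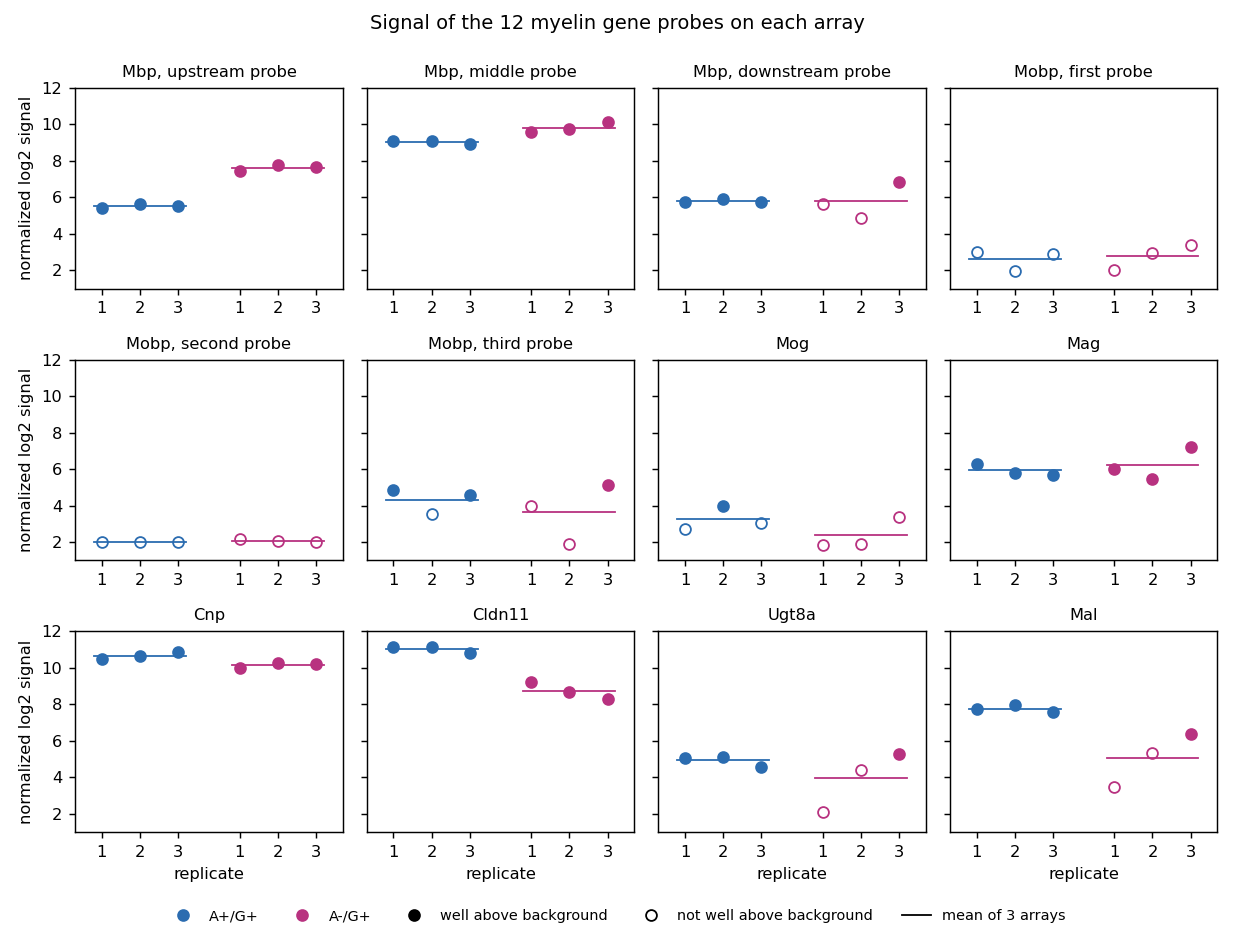
Normalized log2 signal (vertical axis) of the 12 myelin gene probes on each of the 6 arrays (horizontal axis, replicate number), with A+/G+ in blue and A-/G+ in magenta. Lines are the means of 3 arrays, filled points are well above background and open points are not. Mbp upstream is higher on all A-/G+ arrays, Cldn11 and Mal are higher on all A+/G+ arrays, and open points gather on A-/G+ replicates 1 and 2.

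The gene Mbp encodes the basic protein that holds the membrane layers of compact myelin together. Its upstream probe was called higher in A-/G+, its middle probe was higher there below the size limit, and its downstream probe was not resolved. The Mbp locus is known to make both the classic myelin transcripts and longer golli transcripts that begin further upstream. The upstream probe (A_55_P1992160, chr18:82691469-82691528) is listed for 2 RefSeq transcripts, variants 7 and 8. Its signal was 5.40, 5.62 and 5.50 on the A+/G+ arrays and 7.42, 7.78 and 7.68 on the A-/G+ arrays. The fractions were clearly separated, with A-/G+ the higher, and all 6 arrays were well above background. The mean of A+/G+ was 5.51 ± 0.11 (SD, n = 3) and that of A-/G+ 7.62 ± 0.19 (SD, n = 3), a difference of -2.12 with a 95% interval of -2.43 to -1.80. The medians were 4.52-fold apart and the adjusted p was 0.00381, so that the probe was called higher in A-/G+. With normexp background correction the difference was -1.24 (adjusted p = 0.000421) and the size limit was missed, while leaving out any single array did not remove the call.

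The middle Mbp probe (A_52_P604195, chr18:82727929-82727988), which lies 36.5 kb downstream of the upstream probe, is listed for variant 8 alone among RefSeq transcripts. Its signal was 9.08, 9.09 and 8.91 on the A+/G+ arrays and 9.58, 9.75 and 10.12 on the A-/G+ arrays, again without overlap. The difference was -0.79 with a 95% interval of -1.20 to -0.38 (adjusted p = 0.0487). The medians were 1.59-fold apart, which is below the size limit. The adjusted p was 0.0299 to 0.168 with single arrays left out.

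The downstream Mbp probe (A_52_P329451, chr18:82742266-82744570) starts 50.8 kb downstream of the upstream probe. Its annotated span of 2305 bases exceeds the probe's length, so that the probe crosses a splice junction. It is listed for 4 RefSeq transcripts, variant 7 among them but not variant 8. Its signal was 5.74, 5.93 and 5.72 on the A+/G+ arrays and 5.65, 4.89 and 6.85 on the A-/G+ arrays. The A-/G+ arrays lay on both sides of the A+/G+ arrays, and only replicate 3 of them was well above background. The difference was 0.00, and its 95% interval of -1.34 to 1.34 (adjusted p = 0.998) leaves room for a change of more than 2-fold in either direction. It was -0.46 without A-/G+ replicate 2 and 0.52 without A-/G+ replicate 3.

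To ask whether the Mbp probes differed in their difference, the signal of a probe was subtracted from that of another on the same array and these values were compared between the fractions for all 3 pairs. The difference between the fractions was 1.33 higher at the middle than at the upstream probe (exact permutation p = 0.1, two-sided, 0.15 after Benjamini-Hochberg adjustment over the 3 pairs). An exact p of 0.1 is the smallest that 3 arrays against 3 can give. The pairs with the downstream probe (exact p = 0.1 against the upstream and 0.2 against the middle probe, adjusted 0.15 and 0.2) have no measured size, since that probe was not well above background on A-/G+ replicates 1 and 2. This test could not decide whether any pair differs, since even full separation of the fractions gives 0.1, which is above the limit for calls. The signal of the middle minus the upstream probe was 3.41 to 3.68 on the A+/G+ arrays. It was 1.97 to 2.44 on the A-/G+ arrays, so that the fractions did not overlap for this pair. Which of these transcripts are golli forms is not given in the sources used here. The differences at the upstream and middle probes are therefore not read as a change of the classic myelin transcripts.

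**Figure D2:**
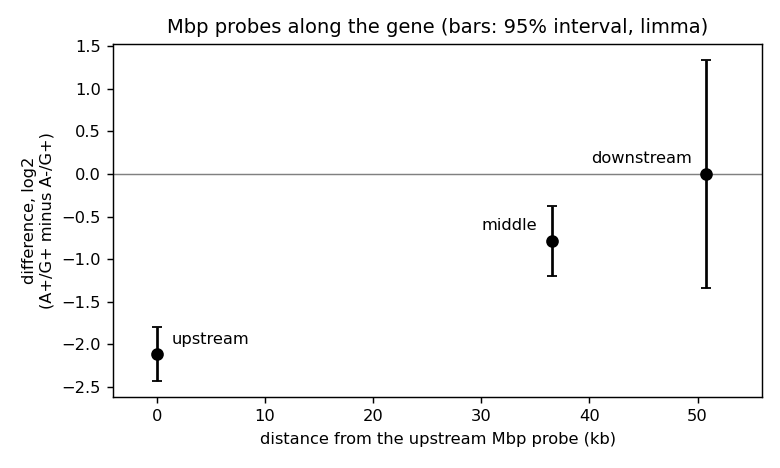
Difference of mean log2 signal between the fractions (vertical axis, A+/G+ minus A-/G+) for the 3 Mbp probes, by distance in kb from the upstream probe (horizontal axis). Points are limma estimates and bars their 95% intervals. The difference is -2.12 at the upstream probe, -0.79 at the middle probe and 0.00, with the widest interval, at the downstream probe, which was well above background on only 1 A-/G+ array.

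Mobp, the oligodendrocytic basic protein of compact myelin, was at the limit of detection. The first Mobp probe (A_51_P291224, chr9:120077006-120077065) and the second (A_55_P1958793, chr9:120078400-120078459) were not well above background on any array. The first gave signals of 1.96 to 3.37 (difference -0.15, adjusted p = 0.867) and the second differed by -0.07 (adjusted p = 0.52), and no fold is given for them. The third probe (A_55_P1958798, chr9:120085150-120085209), listed for transcript variant 1, gave 4.86, 3.54 and 4.57 on the A+/G+ arrays and 3.97, 1.87 and 5.15 on the A-/G+ arrays. It was well above background on A+/G+ replicates 1 and 3 and on A-/G+ replicate 3, and the fractions overlapped. The difference of 0.66 had a 95% interval of -1.75 to 3.08 (adjusted p = 0.684). It was -0.21 when each array was shifted by its 75th percentile and -0.23 without A-/G+ replicate 2.

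Mal, a proteolipid that takes part in sorting membrane to the sheath, was higher on each A+/G+ array than on any A-/G+ array but was not called. The Mal probe (chr2:127458976-127459035, minus strand) gave 7.76, 7.97 and 7.55 on the A+/G+ arrays and 3.47, 5.33 and 6.37 on the A-/G+ arrays. The A+/G+ arrays lay close together and above all A-/G+ arrays, which were spread widely, with only replicate 3 well above background. The difference was 2.70 with a 95% interval of 0.71 to 4.69, and the medians were 5.38-fold apart. The adjusted p was 0.109, and the size rests on 2 A-/G+ arrays on which the probe was not well above background. With a shift to the 75th percentile it was called (2.36, adjusted p = 0.0452), whereas with normexp the difference was 1.35 and the medians 2.32-fold apart (adjusted p = 0.02), below the size limit. Without A-/G+ replicate 1 it was 1.91 (medians 3.75-fold apart, adjusted p = 0.0701). Without A-/G+ replicate 3 it was called (adjusted p = 0.0419), but no A-/G+ array with a measured level is left and no size is given.

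Neither immunoglobulin superfamily member passed the test. Mag, which lies on the myelin membrane facing the axon, was measured by a probe at chr7:31684202-31684261 on the minus strand, whose AATAAA is shown above. Its signal was 6.30, 5.78 and 5.68 on the A+/G+ arrays and 6.01, 5.43 and 7.19 on those of A-/G+. All 6 arrays were well above background and the fractions overlapped, with A-/G+ replicate 3 the highest. The difference of -0.29 had a 95% interval of -1.58 to 1.00 (adjusted p = 0.74), and it was 0.20 without A-/G+ replicate 3.

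Mog, on the outermost surface of the sheath and a late marker of mature oligodendrocytes, was close to background. Its probe (chr17:37148277-37148336, minus strand) gave 2.74, 3.98 and 3.06 on the A+/G+ arrays and 1.86, 1.90 and 3.38 on the A-/G+ arrays. Only A+/G+ replicate 2 was well above background. The difference of 0.88 had a 95% interval of -0.57 to 2.33 (adjusted p = 0.449), and no minimum fold could be set. The difference was 0.02 with the 75th percentile shift and 0.13 with normexp.

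Cnp, an enzyme that is already present in oligodendrocyte precursors and rises with maturation, differed little. Its probe (chr11:100442617-100442676) gave 10.47, 10.62 and 10.86 on the A+/G+ arrays and 9.97, 10.27 and 10.20 on those of A-/G+. The lowest A+/G+ array was above the highest A-/G+ array. The means were 10.65 ± 0.20 (SD, n = 3) and 10.15 ± 0.16 (SD, n = 3), the difference was 0.50 with a 95% interval of 0.15 to 0.86, and the medians were 1.34-fold apart (adjusted p = 0.10). The probes most like Cnp over the 6 arrays, by the root mean square difference after centering each on its mean, were those of Bphl (0.0557), Prkar1a (0.0665) and Mif4gd (0.068), among 17930 probes well above background on all arrays.

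Ugt8a, the enzyme that adds galactose to ceramide, was low. Its probe (chr3:125568995-125569054, minus strand) gave 5.06, 5.13 and 4.58 on the A+/G+ arrays and 2.12, 4.42 and 5.27 on those of A-/G+. Each A+/G+ array was well above background, but A-/G+ replicate 3, the only such array of its fraction, was the highest of all. The difference of 0.99 had a 95% interval of -1.23 to 3.21 (adjusted p = 0.555). It was 0.08 without A-/G+ replicate 1, 1.65 without A-/G+ replicate 3, 0.30 with the 75th percentile shift and 0.21 with normexp.

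**Figure D3:**
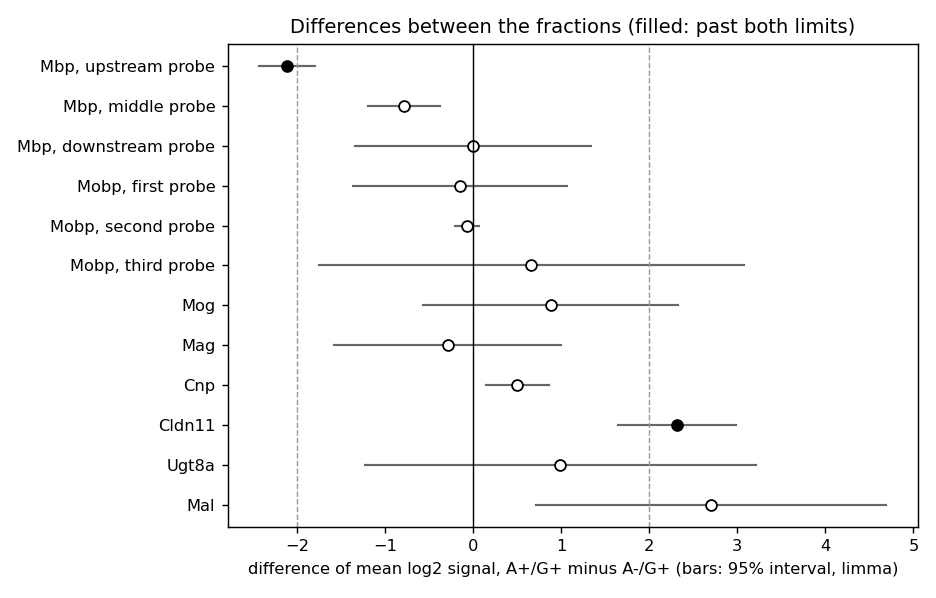
Difference of mean log2 signal (horizontal axis, A+/G+ minus A-/G+) for each of the 12 myelin gene probes, with 95% intervals from limma. Dashed lines mark a 4-fold difference and filled points are the 2 called probes, Cldn11 at 2.31 and Mbp upstream at -2.12. The interval of Mal, at 2.70, excludes 0, but its adjusted p did not pass and only 1 of its A-/G+ arrays was well above background.

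Cldn11, the claudin of the tight junctions within central myelin, was the only probe of the 12 that was called higher in A+/G+. Its probe (chr3:31062922-31062981), whose AATAAA is shown above, gave 11.13, 11.16 and 10.81 on the A+/G+ arrays and 9.20, 8.66 and 8.31 on the A-/G+ arrays. The fractions were far apart and all arrays were well above background. The mean of A+/G+ was 11.04 ± 0.19 (SD, n = 3) and that of A-/G+ 8.72 ± 0.45 (SD, n = 3). The difference was 2.31 with a 95% interval of 1.64 to 2.98, and the medians were 5.55-fold apart (adjusted p = 0.0128). The adjusted p was 0.0599, 0.066 and 0.0549 without A+/G+ replicate 1, 2 or 3, respectively, with differences of 2.26, 2.25 and 2.42, so that the call was lost each time.

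Cldn11 is also known from the barrier cells of the meninges, the membranes that cover the cerebellum. A list of 9 genes of meningeal fibroblasts moved with it. All 9 had a higher mean in A+/G+, without overlap between the fractions, and all 9 stood well above background on every array. Over all probes, 12.7% were higher in A+/G+ without overlap and 1.53% were called in that direction. The mean of their log2 signals was 11.99 to 12.29 on the A+/G+ arrays and 10.66, 10.06 and 9.24 on the A-/G+ arrays. The median difference of the list was 2.01. Of the 9 genes, 3 were called higher in A+/G+: Slc6a13, a GABA transporter of meningeal cells (2.75, adjusted p = 0.0175), Foxc1, a transcription factor needed for meningeal development (2.39, adjusted p = 0.0038), and Igf2, a growth factor (2.00, adjusted p = 0.0392, with medians 3.87-fold apart and no call under normexp). The brightest of the rest were Col1a2 (1.61, adjusted p = 0.0755), Dcn (2.01, adjusted p = 0.0959) and Col1a1 (1.64, adjusted p = 0.0912), which did not pass. Lum, named here after its values were seen, passed the adjusted p but not the size limit (2.17, medians 3.44-fold apart, adjusted p = 0.0309). The count of called genes was 1 without A+/G+ replicate 1, 2 or 3 or A-/G+ replicate 2, and 5 without A-/G+ replicate 1. Where it was 1, the gene was Foxc1.

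On the A-/G+ arrays, Cldn11 and the meningeal mean were both highest on replicate 1, the dimmest array, and lowest on replicate 3, the brightest. The root mean square difference from Cldn11 was 0.184 for Foxc1 and up to 0.468 for the rest of the list. The probes most like Cldn11, looked up after its values had been seen, were those of the chemokine Cxcl12 (0.0682), the collagen chain Col6a3 (0.0732) and Lrrc17 (0.0856). The part of meningeal cells in the Cldn11 difference was not tested.

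**Figure D4:**
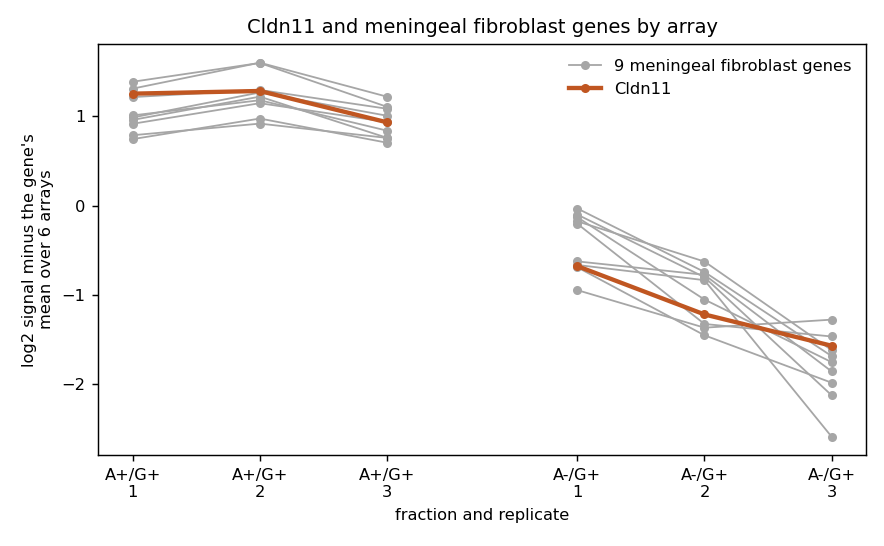
Log2 signal minus the mean of the gene over the 6 arrays (vertical axis) for Cldn11 in orange and 9 meningeal fibroblast genes in gray, by fraction and replicate (horizontal axis). All 10 genes are above their mean on the A+/G+ arrays and below it on the A-/G+ arrays.

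For comparison, the other genes of the sheath and the lineage were taken from lists, each gene by its brightest probe. Counted in that way, the median difference of the 8 myelin genes was 0.77. Of 18 other myelin sheath genes, 0 were called in limma, 13 had a higher mean in A+/G+ and 5 a higher mean in A-/G+, and the median difference was 0.23. Only 10 of these 18 genes stood well above background on every array. The counts and the median thus include genes without a measured level on some arrays. With the adjusted p alone, only Aspa passed, which makes the aspartoacylase of oligodendrocytes and is named here after its values were seen. It was 9.28, 8.88 and 9.05 on the A+/G+ arrays and 7.24, 7.76 and 6.80 on the A-/G+ arrays, a difference of 1.80 (medians 3.50-fold apart, adjusted p = 0.025). Over all probes, 4.65% passed this limit with a higher signal in A+/G+. The brightest genes of the list, Pmp22 (0.12), Ermn (-1.39) and Bcas1 (-0.50), did not pass. Opalin, a late oligodendrocyte membrane protein, stayed at background on all arrays. Without A-/G+ replicate 2, Aspa was called (medians 4.08-fold apart), and without A-/G+ replicate 3, Tppp, a tubulin-binding protein of oligodendrocytes, was called. None of the A-/G+ arrays measured Tppp well above background, and over all 6 arrays it was not called (adjusted p = 0.0968). Its A+/G+ mean was 1.12-fold above the A-/G+ detection limit, a comparison that takes no account of sampling error.

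Of 13 regulators and maturation genes of oligodendrocytes, limma called 3 toward A+/G+ and 0 toward A-/G+, with 6 and 7 higher means, respectively, and a median difference of -0.03. Over all probes, 1.53% and 0.399% were called in these directions. Of the 13 genes, 8 were well above background on every array. Olig1, a transcription factor of the lineage, was 13.18, 13.47 and 13.41 on the A+/G+ arrays and 9.06, 8.37 and 9.34 on the A-/G+ arrays, with medians 20.4-fold apart (difference 4.43, adjusted p = 0.00417). Its relative Olig2 was 10.14, 10.25 and 10.27 on the A+/G+ arrays and 5.65, 5.80 and 6.52 on the A-/G+ arrays, with medians 21.8-fold apart (difference 4.23, adjusted p = 0.00389). Both thus separated the fractions by more than the called probes of Cldn11 and Mbp did. Nkx6-2, a homeobox factor of oligodendrocyte maturation, was the third (adjusted p = 0.0276), but none of the A-/G+ arrays was well above background and no minimum fold could be set. Nkx6-2 was not called without A+/G+ replicate 1 or 3 (adjusted p = 0.105 and 0.0703) or A-/G+ replicate 1 or 2 (adjusted p = 0.0735 and 0.0785). Its difference was 1.00 with the 75th percentile shift (adjusted p = 0.336) and 0.56 with normexp (adjusted p = 0.0751), without a call.

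Of the brightest others, Trf, the iron carrier transferrin, passed the adjusted p but not the size limit (0.96, adjusted p = 0.0304), and Enpp2 (-0.16) and Itpr2 (0.39) did not pass. Nkx2-2, a homeobox factor of the lineage that is named here after its values were seen, was 6.82, 7.04 and 7.07 on the A+/G+ arrays and 8.57, 8.61 and 8.49 on the A-/G+ arrays. This difference of -1.58 passed the adjusted p (0.0038) but not the size limit. Myrf, the transcription factor that switches on myelin genes, likewise stayed at background.

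Of 8 genes of oligodendrocyte precursors, 0 were called in limma, and 2 passed the adjusted p alone, both higher in A+/G+. Over all probes, 4.65% passed in that direction. The 2 genes were Pdgfra, the growth factor receptor of precursors (1.70, medians 3.89-fold apart, adjusted p = 0.028), and Cspg5, a proteoglycan (0.98, adjusted p = 0.026). The mean was higher in A+/G+ for 6 genes and lower for 1, and the median difference was 0.90. Of the 8 genes, 6 were well above background on every array. Outlier spots of Pdgfra were left out on 2 arrays, and with outlier spots kept, 1 gene of the list was called higher in A+/G+. Gpr17, a receptor of immature oligodendrocytes, gave 10.41, 10.96 and 11.08 on the A+/G+ arrays and 9.15, 9.65 and 11.16 on the A-/G+ arrays (difference 0.83, adjusted p = 0.49). Without A-/G+ replicate 3, Pdgfra was called higher in A+/G+ (1.98, medians 4.06-fold apart), as it also was with the deposited log2 table, and Lhfpl3, a marker of precursors, was called higher in A-/G+ (-2.39, adjusted p = 0.012).

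**Figure D5:**
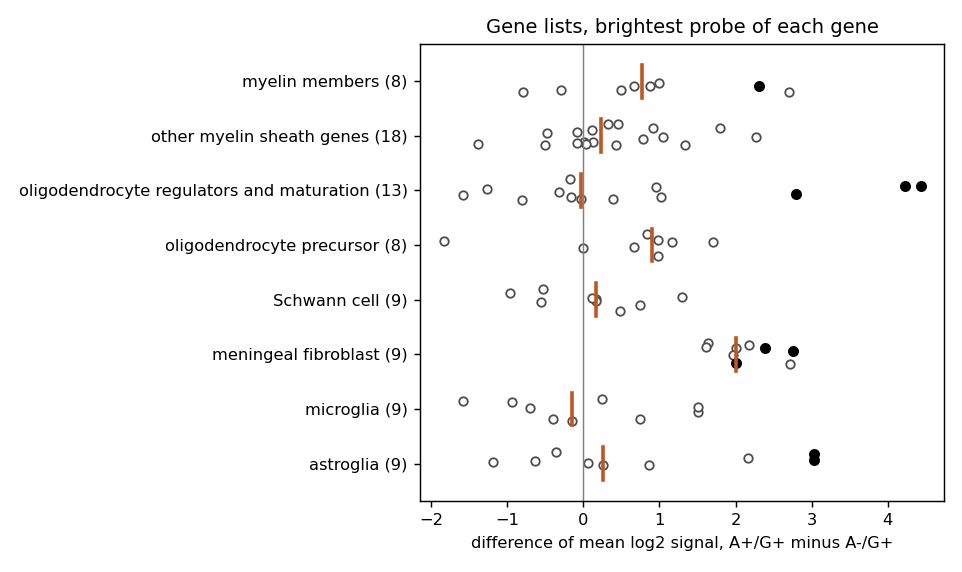
Difference of mean log2 signal (horizontal axis, A+/G+ minus A-/G+) of each gene in 8 lists, by the brightest probe of the gene. The number of genes stands in parentheses, filled points are called genes and orange bars are list medians. Mbp is shown by its middle probe, the median is 2.01 for the meningeal fibroblast list and 0.90 or less for the other 7, and Olig1 and Olig2 lie farthest to the right.

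Many of these genes had their highest A-/G+ signal on replicate 3, a pattern that was looked for after the values were seen. This was so for 6 of the 8 myelin genes by their brightest probe, Mbp, Mog, Mag, Mobp, Ugt8a and Mal. It was also so for 10 of the 18 other sheath genes, 5 of the 13 regulators and 5 of the 8 precursor genes. The count was 5 of 9 for microglial, 3 of 9 for Schwann cell, and 0 of 9 for both meningeal and astroglial genes, so that the pattern was not confined to the lineage. Over the 4 lists of the myelin genes and their lineage, the count was 26 of 47 genes (55.3%), compared with 26.1% of all probes. Among genes well above background on all arrays it was 14 of 28 (50%), compared with 35% of such probes. The mean log2 signal of the 8 myelin genes was 7.18, 7.16 and 7.00 on the A+/G+ arrays and 5.77, 5.95 and 7.00 on the A-/G+ arrays. This mean includes Mog, Mobp, Ugt8a and Mal, which were not well above background on A-/G+ replicates 1 and 2. Of the genes well above background on all arrays, A-/G+ replicate 3 lay above every A+/G+ array for Mbp and Mag. It lay below every A+/G+ array for Cnp and Cldn11. A-/G+ replicate 3 was also the brightest array of its fraction, and the part of array brightness in the pattern was not tested. In contrast, Olig1 and Olig2 were far below the A+/G+ arrays on all A-/G+ arrays, and Cldn11 was lowest on replicate 3.

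Markers of other cell types that the fractions could hold were set beside these values. Of 9 genes of Schwann cells, the myelinating cells of peripheral nerve, 0 were called in limma, with a median difference of 0.16 and list means of 5.05 to 5.57 on the A+/G+ and 4.83 to 5.34 on the A-/G+ arrays. The brightest were Egr2 (0.75), Drp2 (-0.96) and Prx (0.16). Of 9 microglial genes, 0 were called, with a median difference of -0.15 and list means of 4.81 to 6.43 and 5.31 to 6.04, and the brightest were Itgam (-0.40), Csf1r (-0.94) and Tmem119 (higher in A+/G+, medians 2.55-fold apart, adjusted p = 0.0207). Only 4 of the microglial genes were well above background on every array. Ptprc, which encodes the CD45 used for depletion, stayed at background on every array. Of 9 astroglial genes, Gfap (3.03, adjusted p = 0.0182) and Gja1 (3.03, adjusted p = 0.0038, with outlier spots left out on 4 arrays) were called higher in A+/G+. Over all probes, 1.53% were called in that direction. All 9 genes were well above background on all arrays. Fabp7 (0.06) and Aldh1l1 (-0.64, adjusted p = 0.0452) were the brightest of that list beside Slc1a3. The astroglial median difference was 0.26, with list means of 12.24 to 12.38 and 11.01 to 11.90. The astroglial list includes both sort antigens, Atp1b2 and Slc1a3, and is thus not independent of the sort. Gfap was not called without A+/G+ replicate 1, 2 or 3 (adjusted p = 0.0767, 0.0836 and 0.0795) or A-/G+ replicate 1 (adjusted p = 0.0533).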

How the data were processed

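Gene expression was measured on 6 Agilent mouse arrays with the single dye Cy3. The authors deposited the scanner output, with the background-subtracted intensity of each of 62976 spots from Feature Extraction 10.7.3.1, and a table of log2 values that the authors had quantile normalized, with its background step not given in the sources used here. The latter served as an alternative.

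Intensities were taken to the log2 scale without control spots and spots marked as outliers, quantile normalized and averaged per probe. No filter on dim probes was applied. The fractions were compared with limma 3.58.1 in R 4.3.3 over all 55681 probes with Benjamini-Hochberg adjustment, with the 4-fold limit of the study's methods. The fit was tested on simulated data. The number of arrays limits the precision.

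The genes and lists were chosen with earlier results of these data known. Named are all probes of the 8 genes, both sort antigens, called genes of the other 7 lists with up to 3 of the brightest others, and the 3 probes most like Cnp, the brightest of the myelin probes well above background on all arrays. Tppp and Lhfpl3 are named after values were seen, because each was called with an array left out. Other names are marked as chosen after values were seen, apart from Opalin, Myrf and Ptprc, given as defining markers. A minimum fold compares the bright fraction's mean with the dim fraction's detection limit, taken per array as the lowest signal of any probe well above background or the own signal of the probe if larger. RefSeq's gene table of GRCm38.p6, which served for names, holds all 8 symbols.

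Each array was alternatively scaled to its 75th percentile, with a floor on dim signals and, as chosen after seeing the data, without. Further alternatives were the deposited log2 table, normexp (offset 50), removal of dim probes, retention of outlier spots, the methods' t-test, robust limma with a trend, no size limit or 2-fold, averaging all probes of a gene, a replicate block and omission of single arrays. Slide could not be fitted as a block. No other data of the study were analysed here.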

Additional observations from a re-analysis of the deposited data

How the results depend on the processing

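In the main analysis, limma called 851 probes toward A+/G+ and 222 toward A-/G+, among them 1 myelin probe each way and 8 genes of the other lists. A shift to the 75th percentile, or testing only probes well above background on at least 3 arrays, called 2 myelin probes higher in A+/G+, the added probe being Mal, which passed that filter only through its A+/G+ arrays. Normexp called 234 and 48 probes, with 0 myelin probes toward A-/G+. The methods' t-test called 487 and 121 probes and 5 genes of the other lists. With no size limit the counts were 2589 and 2583, with 2 myelin probes higher in A-/G+ and 17 other genes, and with a 2-fold limit they were 1797 and 1340, with 14 other genes. With single arrays left out, the counts ranged from 340 to 1458 and from 77 to 490, with 0 to 2 myelin probes higher in A+/G+, 1 to 1 higher in A-/G+ and 4 to 11 other genes. The 75th percentile shift without a floor, which moved the median difference of all probes to -1.02 from -0.04, called 777 and 2055 probes, with 2 myelin probes higher in A+/G+. The direction of single probes turned for the third Mobp probe (-0.21 with the 75th percentile shift and -0.04 without its floor, and -0.23 to 1.40 with single arrays left out), for Mog (-0.31 without the floor), and with single arrays left out for the first Mobp probe (-0.53 to 0.19) and Mag (-0.68 to 0.20). The cause of these changes was not tested. The upstream Mbp probe was called in 16 of 18 settings and Cldn11 in 14 of 18, including the methods' t-test for both, and Cnp, Mag, Mog, Ugt8a and Mobp were called in 0. The 18 settings include the main analysis and are not independent of each other. Those with no size limit or a 2-fold limit use the main fit and could not lose a call made at 4-fold. As the mean of all its probes, Mbp had a difference of -0.97 (adjusted p = 0.065) and Mobp of 0.15 (adjusted p = 0.84).

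The sample titles do not say whether samples with the same replicate number were paired. Their deviations from the fraction means correlated at 0.088, 0.056 and 0.006 over all probes, and those of samples with different numbers at -0.075 to 0.036. Over probes well above background on all arrays, the values were 0.195, 0.113 and -0.114, compared with -0.24 to 0.17. With 3 arrays per fraction, these values cannot decide whether the samples were paired. With the replicate number as a block, limma called 0 probes in either direction, 0 myelin probes in either direction and 0 other genes. The adjusted p was 0.063 for the upstream Mbp probe and 0.065 for Cldn11. At an unadjusted p below 0.05, the block left 11671 probes, 5 of them myelin probes, compared with 12974 and 5 without it and 12536 and 5 in the methods' t-test. Signal over background limits Mobp, Mog, Ugt8a, Mal and the downstream Mbp probe, which were not well above background on most A-/G+ arrays.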
